A study of Mus musculus with 2 samples.

Results

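*Smoc2*, *Pou3f4*, *Thsd7b*, *Pdzrn4*, *Mybpc1*, *C1ql2*, *Rbm24* and *Rprm* are 8 of the 31055 features counted in single cells of the neonatal mouse pituitary. They were chosen by their levels in late differentiating cells of these same libraries, so their detection beside markers of such cells is a description, carries no test and supports nothing further. Cells of dissociated pituitaries from *Sox9iresGFP/+* pups at postnatal day 3 (P3) had been sorted on the green fluorescence of the reporter and taken through droplet-based single-cell RNA sequencing. There was 1 library from pooled male and 1 from pooled female pituitaries, both untreated and of the same genotype. With 1 library per sex no difference has a replicate check, and all intervals below are 95% intervals that cover counting error only. Both libraries carry the reporter allele, the pooled animals cannot be separated, and the sort enriches for cells with fluorescence left from *Sox9* activity, so the endocrine cells described here are those that passed this gate.

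The male library held 10410 cells after filtering with 105883748 unique molecular identifiers (UMIs), a median of 8902.5 per cell, and the female library 5711 cells with 62830305 UMIs, a median of 9789 per cell. The libraries differed in shallow cells: 34.8% of male and 5.03% of female cells had fewer than 5000 UMIs, and 14.2% and 2.49% met no class rule. They also differed in hormone UMIs outside endocrine cells. In the class of stem cells defined below *Cga* stood at 94.6 counts per 1000000 UMIs (CPM) in the male library and 9.34 CPM in the female, and *Pomc* at 333.6 and 75.7 CPM. The source of these UMIs (free RNA or doublets, for example) was not tested. Shares in POMC cells, a class of another lineage, and in cycling stem cells are given with the first comparison. The libraries shared 19 cell barcodes.

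Pituitary stem cells express SOX2 and SOX9 and, in the first weeks after birth, give rise to endocrine cells. LEF1 is a DNA-binding partner of beta-catenin in canonical WNT signalling, and SHH is a secreted Hedgehog ligand. FOXL2 is a transcription factor of gonadotrophs and thyrotrophs that acts on *Cga*, the gene of the alpha subunit shared by the gonadotrophins and thyrotrophin, whereas POU1F1 is the factor of somatotrophs, lactotrophs and thyrotrophs. The genes described here encode proteins of unrelated kinds. SMOC2 is a secreted calcium-binding matricellular protein and C1QL2 a secreted C1q-like protein known from synapses. POU3F4 is a POU-domain transcription factor known from the inner ear, and RBM24 an RNA-binding splicing regulator known from muscle. PDZRN4 carries a RING finger and PDZ domains, and THSD7B carries thrombospondin repeats. MYBPC1 is the myosin-binding protein C of slow muscle, and RPRM (Reprimo) is a p53 target that halts the cell cycle.

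On the mouse build mm10, *Smoc2* (ENSMUSG00000023886) lies at chr17:14279506-14404790 on the plus strand and *Pou3f4* (ENSMUSG00000056854) at chrX:110814280-110817207 on the plus strand. *Thsd7b* (ENSMUSG00000042581) lies at chr1:129273302-130219278 and *C1ql2* (ENSMUSG00000036907) at chr1:120340582-120343174, both on the plus strand. The 8 genes are thus spread over 7 chromosomes, with no close neighbours among them. *Pdzrn4* (ENSMUSG00000036218) lies at chr15:92396881-92771819 on the plus strand, where it overlaps 4930588J15Rik on the other strand, *Rbm24* (ENSMUSG00000038132) at chr13:46418434-46431095 on the plus strand, *Mybpc1* (ENSMUSG00000020061) at chr10:88518279-88605152 on the minus strand and *Rprm* (ENSMUSG00000075334) at chr2:54084093-54085552 on the minus strand. Since the genes share detection with *Lef1*, the 250 bases before each annotated start in RefSeq (GRCm38.p6) were searched on both strands for the TCF/LEF cores CTTTGA and CTTTGT. Entries were found for 7 of the 8 genes, and one or both cores for *Thsd7b*, *Pdzrn4*, *Rbm24* and *Rprm*, that is in 4 of 8 entries, against 27.6% of 32851 entries in all. Of the 8 entries, CTTTGA was in 3 (13.8% of all entries) and CTTTGT in 2 (16.5%). The E-boxes CAGCTG and CAGATG were each in 2 entries (13% and 14.4% of all), the POU octamer ATGCAAAT in 0 (1.60%), the POU1F1-type TATNCAT in 1 (7.92%) and the short homeodomain core ATTA in 5 (54.9%). A match of letters is a description and not a binding site. The windows that hold a core and overlap no annotated exon are printed 5′ to 3′ on the strand of the gene, for *Pdzrn4* at chr15:92396560-92396809 (plus), for *Rbm24* at chr13:46418050-46418299 (plus) and for *Rprm* at chr2:54085553-54085802 (minus). Capitals mark the TCF/LEF core, read as ACAAAG where CTTTGT is on the reverse strand.
Pdzrn4: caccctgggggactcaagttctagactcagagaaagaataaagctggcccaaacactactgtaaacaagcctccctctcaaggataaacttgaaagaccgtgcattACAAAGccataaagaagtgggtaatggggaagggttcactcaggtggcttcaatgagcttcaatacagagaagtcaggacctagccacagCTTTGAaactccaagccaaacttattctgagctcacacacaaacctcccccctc
Rbm24: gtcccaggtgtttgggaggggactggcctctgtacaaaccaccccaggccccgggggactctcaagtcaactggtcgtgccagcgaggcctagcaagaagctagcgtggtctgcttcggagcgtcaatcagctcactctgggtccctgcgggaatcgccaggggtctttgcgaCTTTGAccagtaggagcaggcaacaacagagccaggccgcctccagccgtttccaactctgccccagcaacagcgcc
Rprm: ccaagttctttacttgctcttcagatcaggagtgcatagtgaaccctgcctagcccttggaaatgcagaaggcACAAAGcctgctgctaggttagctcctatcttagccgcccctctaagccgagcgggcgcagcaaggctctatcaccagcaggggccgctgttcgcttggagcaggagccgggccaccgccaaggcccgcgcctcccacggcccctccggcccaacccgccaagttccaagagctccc

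To follow the genes through differentiation, cells were put in classes by their raw UMIs of a few marker genes, the first rule met deciding. Cells with 20 or more UMIs of collagens and *Dcn* were set aside as extra-pituitary, and cells with 100 or more UMIs of *Pomc* or *Gh* as POMC and Gh cells. Cells with at least 10 *Cga* UMIs, no *Pou1f1* and fewer than 3 *Tshb* UMIs were called maturing gonadotrophs where they also had *Gnrhr* or 3 UMIs of *Lhb* or *Fshb*, Cga-high from 50 UMIs and Cga-mid below that. Pou1f1-high cells had 3 or more *Pou1f1* UMIs, and Pou1f1-low cells 1 or 2. Of the rest, cells with *Foxl2* were called Foxl2 early, those with *Lef1* or *Shh* progenitors, those with *Dll1* or 2 *Cdkn1a* UMIs early differentiating and those with *Sox2* stem cells, or cycling stem cells where 2 or more of 8 proliferation genes were also present. Cells with 10 or more *Prl* UMIs and cells with 10 or more *Cga* UMIs together with 3 of *Tshb* or with any *Pou1f1* formed classes of their own, outside both axes. The progenitor class had 872 male and 602 female cells, Foxl2 early 711 and 353, Cga-mid 367 and 112, and Cga-high 368 and 55. Maturing gonadotrophs numbered 336 and 22, so female values there rest on few cells. Pou1f1-low had 412 and 84, Pou1f1-high 427 and 200, and Gh cells 105 and 48. By the rule the maturing class carried *Gnrhr* (the receptor for the gonadotrophin-releasing hormone), with a UMI in 98.5% and 90.9% of its cells, while *Lhb* had one in 20.5% and 18.2%. *Nr5a1* (a gonadotroph transcription factor), which the rule did not use, was at 56.2 and 74.4 CPM there. In the Foxl2 early class *Nr5a1* was at 3.37 and 1.9 CPM, and *Sox2* was still at 366 and 411 CPM.

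*Smoc2* was low in stem cells, higher in progenitors and, along the gonadotroph axis, highest in Foxl2 early and Cga-mid cells. Its level was 15.9 CPM (13.9 to 18.2) in male and 6.98 CPM (5.77 to 8.35) in female stem cells, 205 (196 to 214) and 192 (182 to 202) CPM in progenitors, and 335 (323 to 347) and 339 (322 to 356) CPM in Foxl2 early cells. Cga-mid cells had 299 (280 to 318) and 336 (308 to 366) CPM, which in the female library could not be told from Foxl2 early cells. From there the level was 123.4 (114 to 133) and 169 (142 to 198) CPM in Cga-high cells and 21.1 (17.3 to 25.3) and 3.1 (0.0785 to 17.3) CPM in maturing gonadotrophs, which is about the stem-cell level. In Pou1f1-low cells it was 129 and 120 CPM, in Pou1f1-high cells 34.4 (30 to 39.4) and 29.8 (23.5 to 37.2) CPM and in Gh cells 18.6 and 5.82 CPM. *Smoc2* was thus low at the end of both axes in both libraries.

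**Figure D1:**
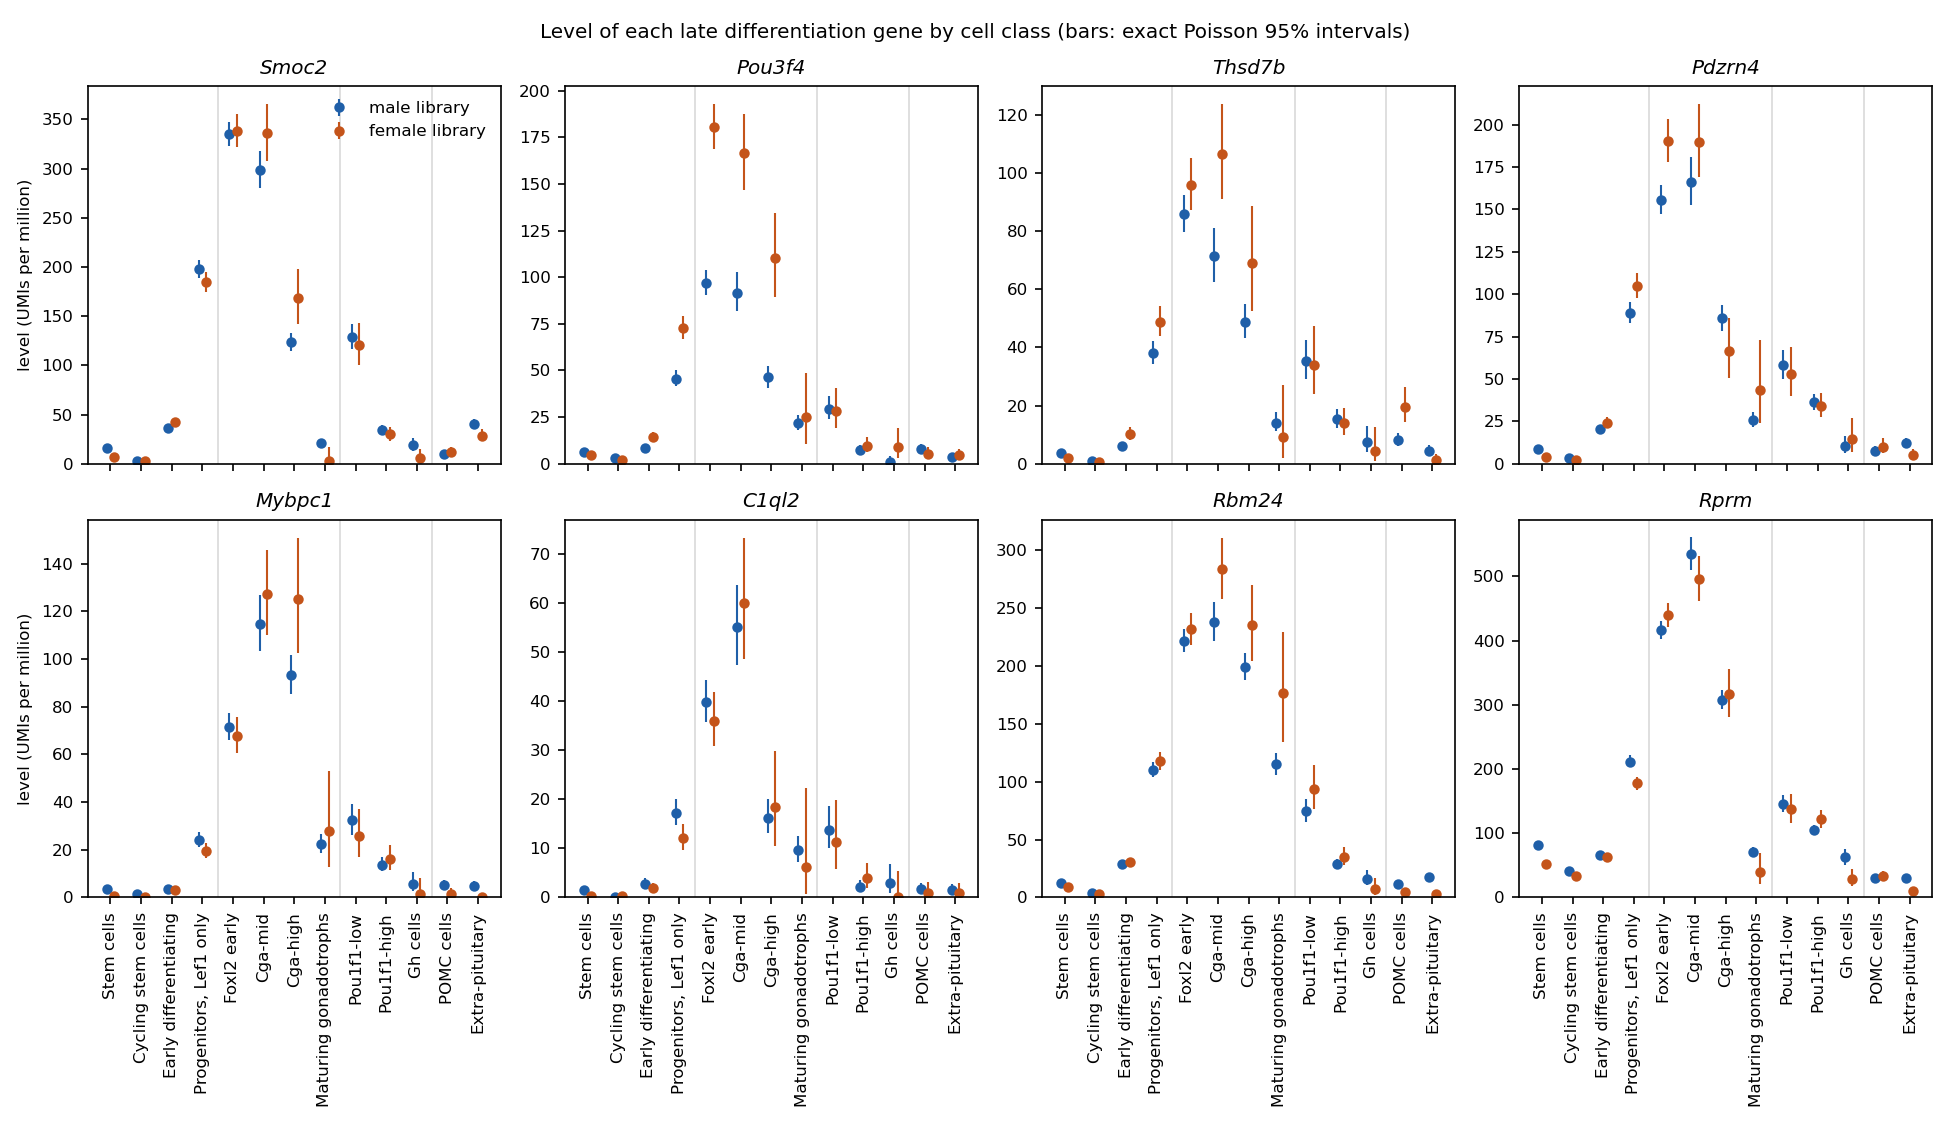
Level of each of the 8 genes (y axis, CPM) by marker-defined class (x axis) in the male and the female library, with points for the summed UMIs of a class and bars for exact Poisson 95% intervals. Of the classes plotted, *Smoc2* is highest in Foxl2 early and Cga-mid cells, 335 and 299 CPM in the male library, whereas the high values of *Mybpc1* extend to the Cga-high class.

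*Pou3f4* and *Thsd7b* followed a course like that of *Smoc2*, with a shallower end. In Cga-high cells *Pou3f4* was at 0.835 (0.718 to 0.970) times its progenitor level in the male and 1.42 (1.13 to 1.76) times in the female library. *Thsd7b* was at 1.16 (0.991 to 1.35) and 1.35 (1.01 to 1.77) times. *Smoc2* was at 0.602 (0.551 to 0.656) and 0.880 (0.737 to 1.04) times. The male *Thsd7b* and the female *Smoc2* level thus could not be told from progenitors. *Pou3f4* was at 6.41 (5.15 to 7.89) and 4.91 (3.91 to 6.08) CPM in stem cells, 55.5 and 77.8 CPM in progenitors and 96.9 (90.5 to 104) and 180 (169 to 193) CPM in Foxl2 early cells. In Cga-high cells it was at 46.3 and 110 CPM, and in maturing gonadotrophs at 21.8 (18 to 26.2) and 24.8 (10.7 to 48.9) CPM, still above the stem-cell interval in both libraries. *Thsd7b* was at 3.6 and 1.89 CPM in stem cells, 42.1 and 51 CPM in progenitors and 85.8 and 95.7 CPM in Foxl2 early cells. In Cga-high cells *Thsd7b* was at 48.8 (43.2 to 55) and 68.8 (52.5 to 88.6) CPM, with intervals that overlapped those of progenitors. In maturing gonadotrophs it was at 14.1 (11.1 to 17.7) and 9.3 (1.92 to 27.2) CPM. In Pou1f1-high cells *Pou3f4* had 7.33 and 9.66 CPM and *Thsd7b* 15.3 and 13.9 CPM. *Pdzrn4* was at 8.64 and 4.14 CPM in stem cells, 91.1 and 107 CPM in progenitors, 156 (147 to 164) and 190 (178 to 203) CPM in Foxl2 early cells and 166 (153 to 181) and 190 (169 to 212) CPM in Cga-mid cells. The last 2 classes did not differ beyond their intervals for *Pdzrn4*. It was at 25.6 and 43.4 CPM in maturing gonadotrophs and 36.2 and 34 CPM in Pou1f1-high cells.

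*Mybpc1*, *C1ql2* and *Rprm* were higher in Cga-mid than in Foxl2 early cells, with intervals apart in both libraries. *Mybpc1* was at 3.67 and 0.532 CPM in stem cells, 26.8 (23.7 to 30.2) and 22.2 (18.9 to 25.8) CPM in progenitors, 71.6 (66 to 77.4) and 67.7 (60.5 to 75.5) CPM in Foxl2 early cells and 115 (103 to 127) and 127 (110 to 146) CPM in Cga-mid cells. Cga-high cells kept 93.2 (85.4 to 102) and 125 (103 to 151) CPM, and maturing gonadotrophs 22.4 and 27.9 CPM, so the female Cga-mid and Cga-high levels could not be told apart. *Mybpc1* therefore had the highest Cga-mid level relative to progenitors among the 8 genes, 4.28 and 5.73 times. *C1ql2* was at 20 and 12.7 CPM in progenitors, 39.9 (35.8 to 44.4) and 36 (30.8 to 41.9) CPM in Foxl2 early cells, 55.1 (47.4 to 63.7) and 60.1 (48.7 to 73.4) CPM in Cga-mid cells and 16.3 and 18.4 CPM in Cga-high cells. *Rprm* was at 227 and 190 CPM in progenitors, 416 (403 to 430) and 440 (421 to 459) CPM in Foxl2 early cells, 535 (510 to 561) and 496 (462 to 531) CPM in Cga-mid cells and 71.4 (64.4 to 79) and 40.3 (21.5 to 68.9) CPM in maturing gonadotrophs. It was already detected in stem cells, at 82 (77.3 to 86.9) and 51.5 (48.1 to 55) CPM, and its maturing level was 0.871 (0.773 to 0.979) and 0.783 (0.415 to 1.35) times the stem-cell level.

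*Rbm24* was not below its progenitor level in maturing gonadotrophs beyond counting error in either library. It was at 12 and 9.22 CPM in stem cells, 116 and 121 CPM in progenitors, 238 (222 to 255) and 283 (258 to 311) CPM in Cga-mid cells and 199 (188 to 211) and 235 (204 to 270) CPM in Cga-high cells. Maturing gonadotrophs kept 115 (106 to 124) and 177 (134 to 229) CPM, which was 0.991 (0.897 to 1.09) and 1.46 (1.1 to 1.91) times the progenitor level and 9.55 and 19.2 times the stem-cell level. The corresponding ratios of maturing gonadotrophs to progenitors were 0.314 and 0.212 for *Rprm*. For *Mybpc1* they were 0.835 (0.667 to 1.04) and 1.26 (0.566 to 2.45). *Mybpc1* was thus likewise not below its progenitor level beyond counting error in either library. For *Smoc2* the male ratio was 0.103 (0.0841 to 0.124), the lowest of the 8 in that library. The female *Smoc2* level rested on 1 UMI, too few for an exact ratio. Along the Pou1f1 axis *Rbm24* was at 28.5 and 35.2 CPM in Pou1f1-high cells, 0.246 and 0.291 times the progenitor level.

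The few *Shh* progenitors, 33 male and 19 female cells that had met none of the endocrine rules, stood above the *Lef1*-only progenitors. *Smoc2* was at 388 (329 to 455) and 401 (327 to 486) CPM in them, against 198 (189 to 207) and 184 (175 to 194) CPM with *Lef1* only. *Pou3f4* was at 296 (245 to 355) and 214 (161 to 279) CPM against 45.6 and 73.0 CPM, and *Rprm* at 610 (535 to 693) and 553 (466 to 652) CPM against 212 and 177 CPM. For *Smoc2*, *Pou3f4*, *Thsd7b* and *Rprm* this was the highest level of any class in both libraries, although its interval overlapped that of Foxl2 early cells for *Smoc2* in both libraries and for *Pou3f4* and *Thsd7b* in the female library, and that of Cga-mid cells for *Rprm* in both. The male *Lef1*-only level of *Pou3f4* was 71 CPM with all thresholds doubled and 80.8 CPM with classes from cells thinned to 5000 UMIs.

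Counted over all measured genes, 5 of the 7 genes with at least 20 CPM in progenitors of both libraries were at least 2-fold lower in maturing gonadotrophs in both, namely *Smoc2*, *Pou3f4*, *Thsd7b*, *Pdzrn4* and *Rprm*, against 5.65% of 5521 genes. *C1ql2* had too few counts to enter. In Pou1f1-high cells 5 of 7 were at least 2-fold lower, *Rbm24* taking the place of *Rprm*, against 2.66% of genes, and in Gh cells 7 of 7, against 4.47%. The Gh class was mixed by its markers: *Pou1f1* had a UMI in 70.5% of male and 68.8% of female Gh cells, and *Sox2* in 70.5% and 31.2%. None of the 7 was so in Foxl2 early cells (0.435% of genes), Cga-mid cells (1.92%), Cga-high cells (4.85%) or Pou1f1-low cells (0.0181%). The counts of 0 in Cga-high and Pou1f1-low cells depended on how the classes were drawn, while those in Foxl2 early and Cga-mid cells stayed at 0. With all thresholds doubled 2 of the genes were 2-fold lower in Cga-high and 6 in Pou1f1-low cells, and with classes from cells thinned to 5000 UMIs 4 in each. Male Pou1f1-low cells were also shallow, with a median of 2313 UMIs against 11534 in male progenitors. The choice of the genes used levels from these same cells, so these counts describe them only.

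To compare detection at 1 depth, cells with at least 5000 UMIs were thinned to 5000, which left 6783 male and 5424 female cells. A gene was called present from 1 UMI, and *Cga* from 5 because of its UMIs outside endocrine cells. *Lef1* was present in 1009 male and 710 female cells. *Smoc2* was present in 58.2% (55.1 to 61.2) of male and 54.4% (50.6 to 58.1) of female *Lef1*-positive cells, against 12.0% and 9.97% of *Lef1*-negative cells. For comparison, it was present in 3.46% and 6.02% of POMC cells and in 0.679% and 0.989% of cycling stem cells. Read the other way, 45.8% and 45.1% of *Smoc2*-positive cells had *Lef1*, against 7.67% and 7.09% of the other cells. *Smoc2*-positive cells without a *Lef1* UMI thus outnumbered those with one at this depth, which does not show that they lacked *Lef1*.

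The other 7 genes were also more often present in *Lef1*-positive cells. *Rbm24* was present in 46.7% of male and 44.1% of female *Lef1*-positive cells against 14.9% and 9.42% of *Lef1*-negative cells. *Pdzrn4* was present in 38.6% and 37.7% against 10.6% and 7.74%, *Thsd7b* in 25.7% and 26.6% against 5.54% and 3.99%, and *Pou3f4* in 20.02% and 24.2% against 4.88% and 4.60%. *Mybpc1* was present in 21.5% and 12.4% against 5.61% and 2.80%, and *C1ql2* in 13% and 9.30% against 2.77% and 1.34%. *Rprm* was present in 62.3% and 55.1% but also in 27.5% and 21.3% of *Lef1*-negative cells, which gave the lowest ratio of the 8, 2.27 and 2.58. Shares of POMC cells with these 7 genes ranged from 0.433% (*Mybpc1*) to 9.96% (*Rprm*) in the male and from 0.752% (*Mybpc1*, *C1ql2*) to 12.8% (*Rprm*) in the female library. In cycling stem cells *Rprm* was present in 16.5% and 13.2% and the other 6 in at most 1.36% and 1.24%. All 8 had at least a 2-fold higher share in *Lef1*-positive cells in both libraries, against 1.51% of 12177 genes, a count from which nothing is read because the choice of the genes used such cells.

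**Figure D2:**
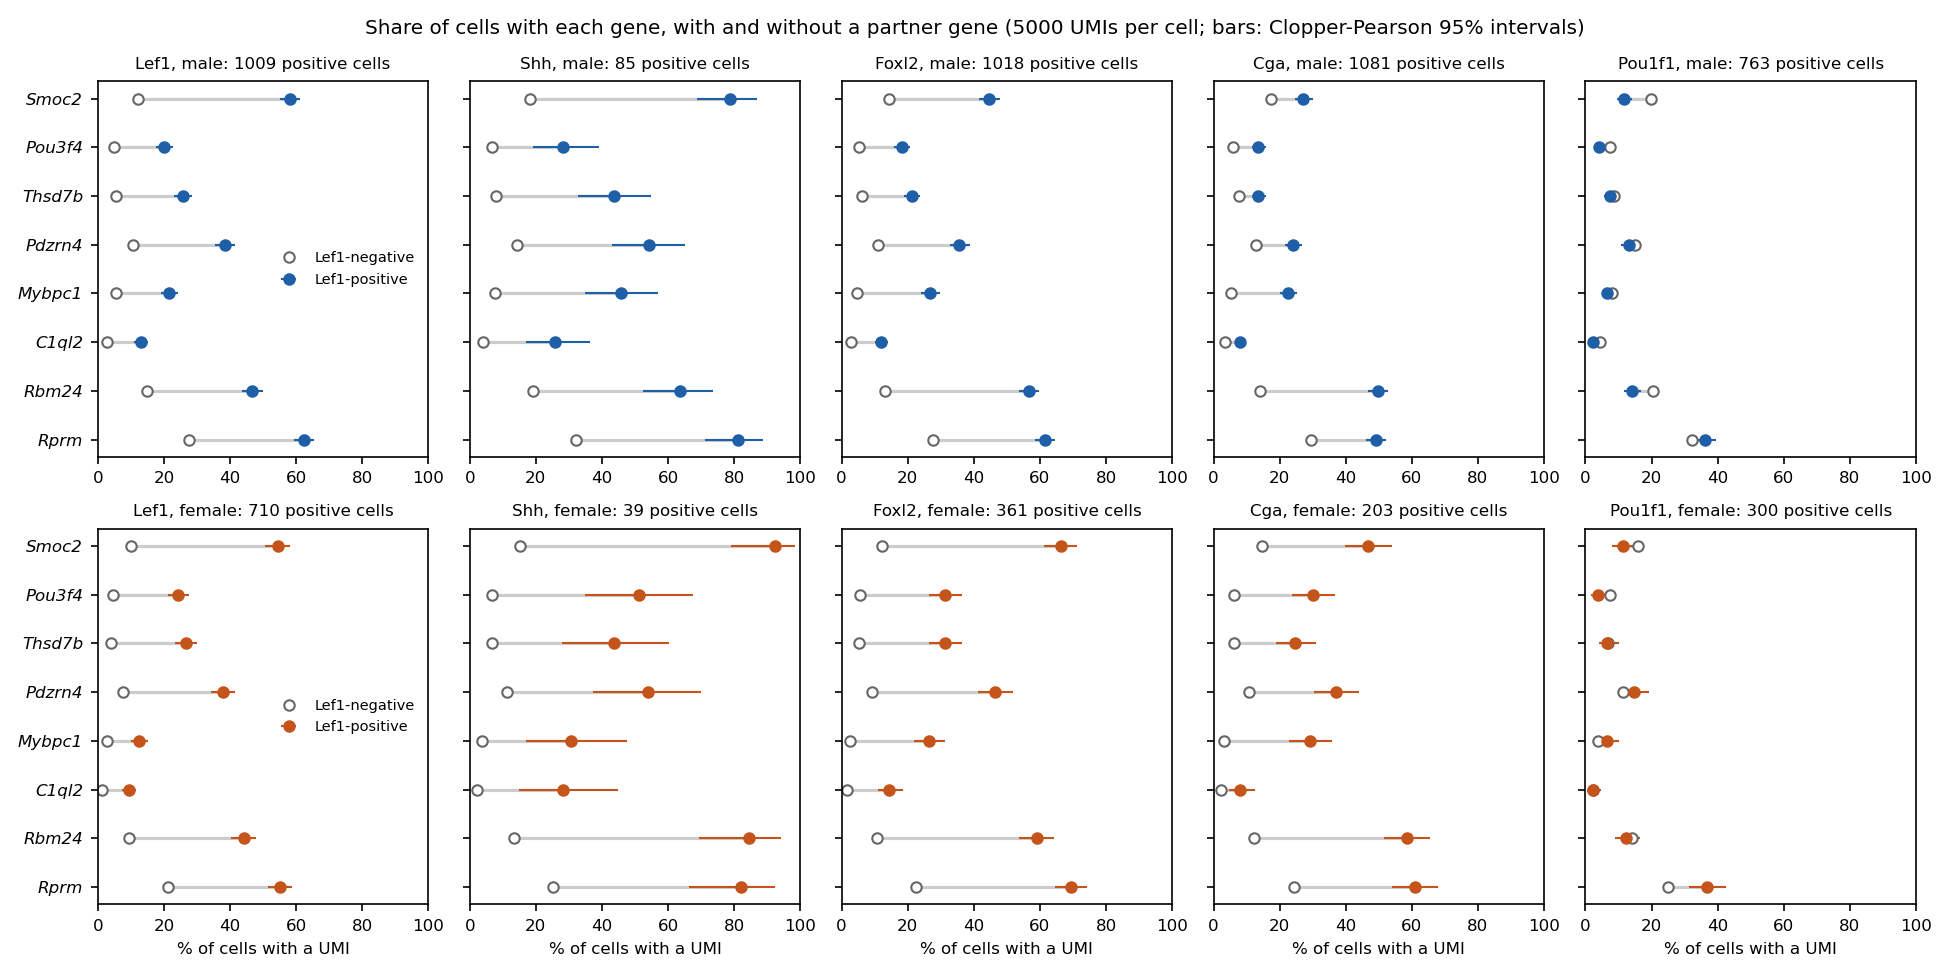
Share of thinned cells with a UMI (x axis, percent) of each gene (y axis) among cells with and without *Lef1*, *Shh*, *Foxl2*, *Cga* and *Pou1f1* (columns), in the male and the female library (rows). Filled points are partner-positive cells, with Clopper-Pearson 95% intervals, and open points are partner-negative cells. With *Pou1f1* the share of *Smoc2* is lower in positive cells, 11.7% against 19.8% in the male library, and with the other partners it is higher.

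*Shh* was rare, in 85 male and 39 female cells, of which 51.8% and 53.8% had *Lef1* and 48.2% and 59.0% *Foxl2*. *Smoc2* was present in 78.8% of male and 92.3% of female *Shh*-positive cells, against 18.1% and 15.2% of *Shh*-negative cells, *Rprm* in 81.2% and 82.1% and *Rbm24* in 63.5% and 84.6%. *Pdzrn4* was present in 54.1% and 53.8%, *Thsd7b* in 43.5% and 43.6%, and *Mybpc1* in 45.9% and 30.8%. *Pou3f4* was present in 28.2% and 51.3%, and *C1ql2* in 25.9% and 28.2%. The other 7 genes were present in 4.02% (*C1ql2*) to 32% (*Rprm*) of male and 2.19% to 25.3% of female *Shh*-negative cells. The shares of *Smoc2* were above those in *Lef1*-positive cells in both libraries. All 8 had at least a 2-fold higher share with *Shh* in both libraries, against 2.24% of genes, with the same limit on its reading. With all thresholds doubled this held for 5 of the 8, from 12 male and 2 female *Shh*-positive cells.

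*Foxl2* was present in 1018 male and 361 female cells, of which 64.0% and 32.7% were *Cga*-positive. *Smoc2* was present in 44.7% of male and 66.5% of female *Foxl2*-positive cells, against 14.3% and 12.2% of negative cells, *Rprm* in 61.6% and 69.5% and *Rbm24* in 56.7% and 59.0%. *Pdzrn4* was present in 35.7% and 46.5%, *Mybpc1* in 26.8% and 26.3%, and *C1ql2* in 12.0% and 14.4%. *Thsd7b* was present in 21.2% and 31.3%, and *Pou3f4* in 18.2% and 31.3%. The other 7 genes were present in 2.93% (*C1ql2*) to 27.5% (*Rprm*) of male and 1.52% to 22.6% of female *Foxl2*-negative cells. The male library had more *Cga*-positive cells among its *Foxl2*-positive cells and the lower *Smoc2* share, and a link between these was not tested. All 8 had at least a 2-fold higher share in *Foxl2*-positive cells in both libraries, against 2.98% of genes.

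*Cga* set the genes apart. It was present at 5 or more UMIs in 1081 male and 203 female cells. *Mybpc1* was present in 22.7% and 29.1% of them, against 5.19% and 3.08% of *Cga*-negative cells, and *Smoc2* in 27.2% and 46.8% against 17.3% and 14.6%. *Mybpc1* had the highest ratio of shares between *Cga*-positive and *Cga*-negative cells, 4.37 in the male library and 9.43 in the female, and *Rbm24* had 3.55 and 4.80. For *Pou3f4* the ratios were 2.30 and 4.78 and for *C1ql2* 2.25 and 3.64, whereas *Smoc2* had 1.57 and 3.21 and *Rprm* 1.66 and 2.51. Thus 4 of 8, *Pou3f4*, *Mybpc1*, *C1ql2* and *Rbm24*, were at least 2-fold higher in both libraries, against 3.97% of genes, and in the female library alone all 8 were. This count was 2 to 6 over the other settings with both libraries, and 5 with another thinning seed, so the place of single genes near 2-fold is not firm. With *Pou1f1* the genes did not share a direction beyond counting error. The share of *Pou3f4* was lower in positive cells in both libraries, with intervals apart. For *Smoc2*, *C1ql2* and *Rbm24* it was lower with intervals apart in the male library, but the female intervals overlapped. For *Thsd7b*, *Pdzrn4* and *Mybpc1* the intervals overlapped in both libraries. *Rprm* was higher with intervals apart in the female library, and its male intervals overlapped. Among 763 male and 300 female *Pou1f1*-positive cells *Smoc2* was present in 11.7% and 11.3%, against 19.8% and 16.0% of negative cells. *Pou3f4* was present in 4.06% and 3.67% against 7.52% and 7.38%, and *Rprm* in 36.0% and 36.7% against 32.2% and 25.1%. *Rbm24* was present in 14.2% and 12.3% against 20.4% and 14.1%, and *Pdzrn4* in 13.2% and 14.7% against 14.9% and 11.5%. With *Pou1f1*, 0 of 8 were at least 2-fold higher in both libraries, against 2.4% of genes.

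Cells with 2 partners separated *Lef1* from *Foxl2*. Of 603 male and 490 female cells with *Lef1* but neither *Foxl2* nor *Pou1f1*, 57.2% and 51.0% had *Smoc2*. Of 272 and 146 cells with *Lef1* and *Foxl2*, 74.6% and 80.8% had it. *Smoc2* was thus most often present where both factors were. Of 660 and 193 cells with *Foxl2* alone, 33.2% and 59.1% had it, and of 108 and 63 cells with *Lef1* and *Pou1f1*, 24.1% and 22.2%. Cells with *Pou1f1* alone (569 and 215) had *Smoc2* in 5.27% and 5.58%, below the 9.50% and 7.92% of cells with none of the 3 factors. The intervals of these shares were apart in the male library and overlapped in the female. *Rbm24* was present in 64.0% and 67.1% of cells with *Lef1* and *Foxl2*, in 54.4% of cells with *Foxl2* alone in each library and in 7.21% and 6.05% of cells with *Pou1f1* alone. *Rprm* remained in 32.5% and 33% of cells with *Pou1f1* alone, above the 22.7% and 18.7% of cells with none of the factors.

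The onset was followed in hormone-poor cells without *Pou1f1* by the number of *Lef1* UMIs. *Smoc2* was present in 12.3% of male and 9.44% of female cells with 0 *Lef1* UMIs, in 57.3% and 53.4% with 1, in 72.6% and 61.5% with 2 to 3, and in 55.6% and 88.9% with 4 or more, the last step resting on 27 and 9 cells. *Rprm* was present in 27.6% and 21.3% at 0, 56.2% and 50.9% at 1 and 69.3% and 59.8% at 2 to 3. *Rbm24* was present in 10.9% and 8.83% at 0, 43.2% and 41.5% at 1 and 54.7% and 47.5% at 2 to 3. For these 3 genes most of the difference was between 0 and 1 *Lef1* UMI. Among *Lef1*-positive cells, *Pou3f4* was more often present where *Sox2* was low, in 29.3% of male and 36.9% of female cells with 0 *Sox2* UMIs and in 17.6% and 15.2% of those with 4 or more. *Smoc2* was at 62.4% and 57.7% against 48.1% and 51.0%.

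**Figure D3:**
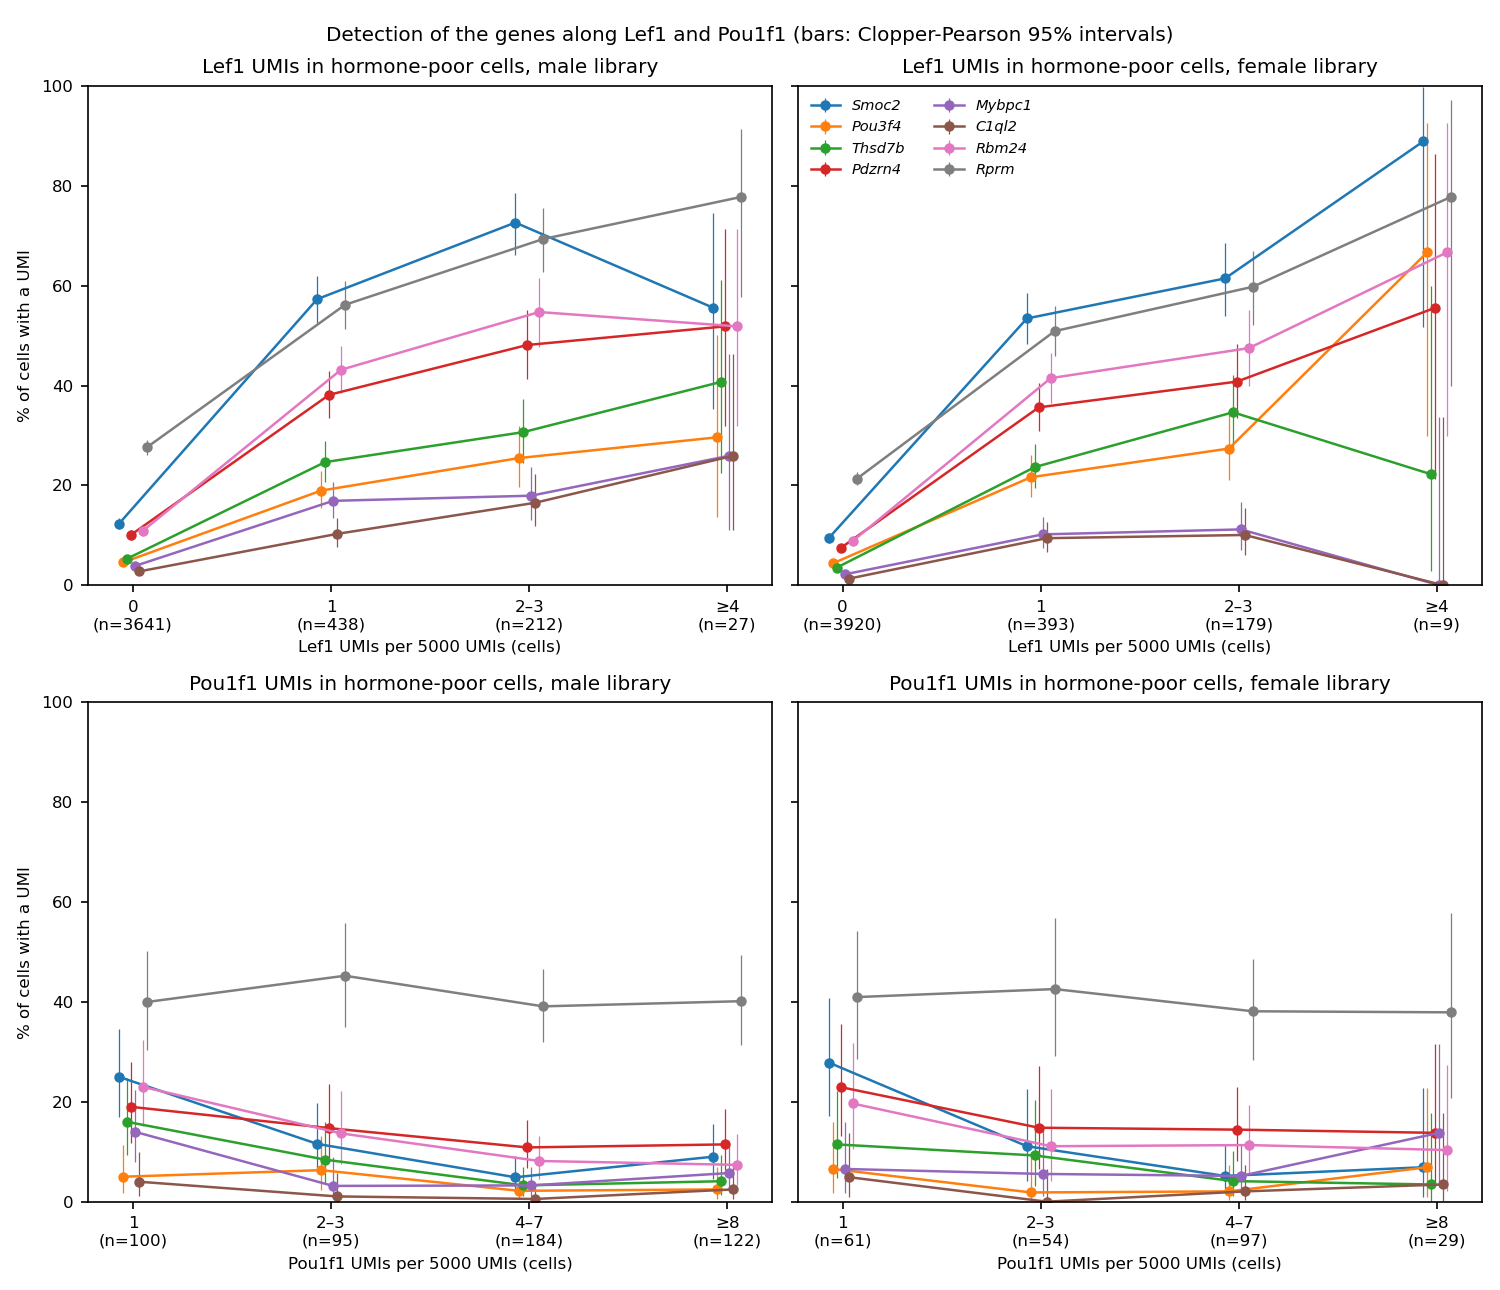
Share of thinned hormone-poor cells with a UMI of each gene (y axis, percent) along the number of *Lef1* UMIs (upper panels) and of *Pou1f1* UMIs (lower panels) per cell (x axis), in the male and the female library, with Clopper-Pearson 95% intervals. *Smoc2* goes from 12.3% to 57.3% between 0 and 1 *Lef1* UMI in the male library, and from 25% at 1 *Pou1f1* UMI to 4.89% at 4 to 7.

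The end of expression in gonadotroph differentiation was followed by the number of *Cga* UMIs in *Foxl2*-positive cells without *Pou1f1*. *Smoc2* was present in 76.5%, 73.4%, 70.3% and 67.1% of male cells with 0, 1 to 4, 5 to 9 and 10 to 19 *Cga* UMIs, in 40.9% with 20 to 49, 8.46% with 50 to 99 and 1.09% with 100 or more. In the female library the shares were 75.5%, 81.4%, 83.3%, 64.7%, 50%, 18.8% and 0%, the last from 8 cells, too few to set a low share. In the male library *Smoc2* was thus present at a similar rate up to 19 *Cga* UMIs and rare from 50, while the female share was 18.8% of 16 cells at 50 to 99. *Rprm* was present in 76.5% of male cells at 0 *Cga* UMIs, 88.5% at 1 to 4, 64.3% at 20 to 49 and 23.9% at 100 or more, and in 67.1%, 82.9%, 75% and 12.5% of female cells. *Rbm24* was present in 56.8% at 0, 71.9% at 5 to 9, 67.5% at 20 to 49 and 41.3% at 100 or more in the male library, and in 50.3%, 83.3%, 75% and 37.5% in the female library. *Rbm24* was thus still often present in *Cga*-rich male cells in which *Smoc2* was rare.

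The remaining genes were present in 1.09% to 7.61% of the 92 male cells with 100 or more *Cga* UMIs and in 0 of 8 such female cells, too few to set a low share. *Mybpc1* was present in 22.4% of male cells at 0 *Cga* UMIs, 50.7% at 10 to 19, 19.4% at 50 to 99 and 1.09% at 100 or more, and in 19.4%, 38.2%, 12.5% and 0% of female cells, with a female maximum of 50% at 20 to 49. *C1ql2* was present in 13.7% at 0, 25.9% at 1 to 4, 25% at 5 to 9, 24.7% at 10 to 19, 8.44% at 20 to 49, 1.49% at 50 to 99 and 4.35% at 100 or more in the male library. The highest male share was at 10 to 19 *Cga* UMIs for *Mybpc1* and at 1 to 4 for *C1ql2* and *Rprm*. Intervals of the neighbouring steps overlapped for each of these genes, so the step of the maximum is not set. *Thsd7b* was present in 37.2% at 0, 14.9% at 20 to 49 and 2.17% at 100 or more, and *Pou3f4* in 27.3%, 14.9% and 7.61% of male cells at the same steps. The female library differed in its first steps: *Pou3f4* was present in 29.7% at 0, 38.6% at 1 to 4, 58.3% at 5 to 9, 44.1% at 10 to 19 and 20.8% at 20 to 49, and *Thsd7b* in 27.7% at 0, 51.4% at 1 to 4 and 33.3% at 20 to 49. Between 0 and 1 to 4 *Cga* UMIs the female intervals were apart for *Thsd7b* and overlapped for *Pou3f4*, and the difference between the libraries was not tested. *Pdzrn4* was present in 50.3% at 0, 54% at 1 to 4, 42.2% at 20 to 49, 13.4% at 50 to 99 and 6.52% at 100 or more in the male library. In female cells with 50 to 99 *Cga* UMIs *Pdzrn4* was present in 43.8% of 16 cells.

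**Figure D4:**
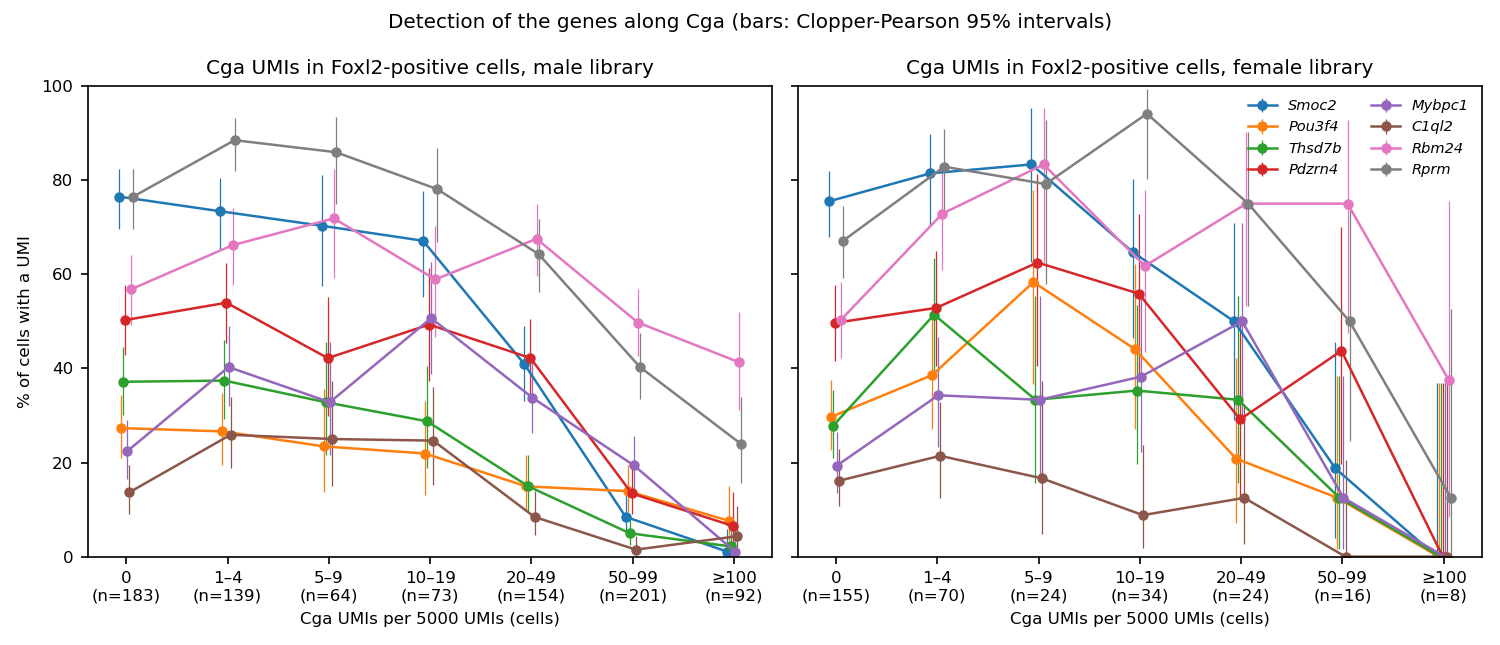
Share of thinned *Foxl2*-positive, *Pou1f1*-negative cells with a UMI of each gene (y axis, percent) along the number of *Cga* UMIs per cell (x axis), in the male and the female library, with Clopper-Pearson 95% intervals. *Smoc2* is at 1.09% and *Rbm24* at 41.3% in male cells with 100 or more *Cga* UMIs.

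Along *Pou1f1* the genes were rarer from the start. In hormone-poor cells *Smoc2* was present in 25% of male and 27.9% of female cells with 1 *Pou1f1* UMI, 11.6% and 11.1% with 2 to 3, 4.89% and 5.15% with 4 to 7, and 9.02% and 6.90% with 8 or more. The *Smoc2* share was thus lower at each later step than at 1 *Pou1f1* UMI. Intervals at 1 and at 2 to 3 UMIs overlapped in both libraries, and those at 1 and at 4 to 7 were apart in both. At 8 or more the female interval also overlapped that at 1. *Rbm24* was present in 23% and 19.7% at 1 UMI and 7.38% and 10.3% at 8 or more, and *Thsd7b* in 16% and 11.5% and then 4.10% and 3.45%. *Pdzrn4* was present in 19% and 23% at 1 UMI and 11.5% and 13.8% at 8 or more. *Rprm* did not follow them: it was present in 40% and 41% at 1 UMI, 45.3% and 42.6% at 2 to 3, 39.1% and 38.1% at 4 to 7 and 40.2% and 37.9% at 8 or more, with overlapping intervals throughout.

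The genes were also found in the same cells as each other. At 5000 UMIs per cell, 52.6% of male and 61.6% of female cells had none of the 8, 433 and 252 cells (6.38% and 4.65%) had 5 or more, and 4 and 2 cells had all 8. The mean number per cell was 2.86 and 2.64 in *Lef1*-positive, 4.21 and 4.67 in *Shh*-positive and 0.955 and 0.943 in *Pou1f1*-positive cells. Of cells with 5 or more, 49% and 50.4% had *Lef1*, 48.5% and 45.2% *Foxl2*, and 6.70% and 3.57% *Pou1f1*. These cells also had more raw UMIs, a median of 14367 and 13290 against 12122 and 9876.5, and the part of that in the counts was not tested beyond thinning. Among pairs, 73.2% and 78.3% of *C1ql2*-positive cells had *Smoc2*, against 16.5% and 14.3% of cells without *C1ql2*. *Rprm* was present in 69.6% and 63.4% of *Smoc2*-positive cells against 24.0% and 18.7% of the others, and *Rbm24* in 67.1% and 65.5% of *Mybpc1*-positive cells against 15.6% and 11.8%. Within *Lef1*-positive cells these differences were smaller. There *Smoc2* was present in 79.4% and 81.8% of cells with *C1ql2* against 55.0% and 51.6% without. *Rprm* was present in 75.0% and 69.7% with *Smoc2* against 44.8% and 37.7%. *Rbm24* was present in 67.3% and 75.0% with *Mybpc1* against 41.0% and 39.7%.

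**Figure D5:**
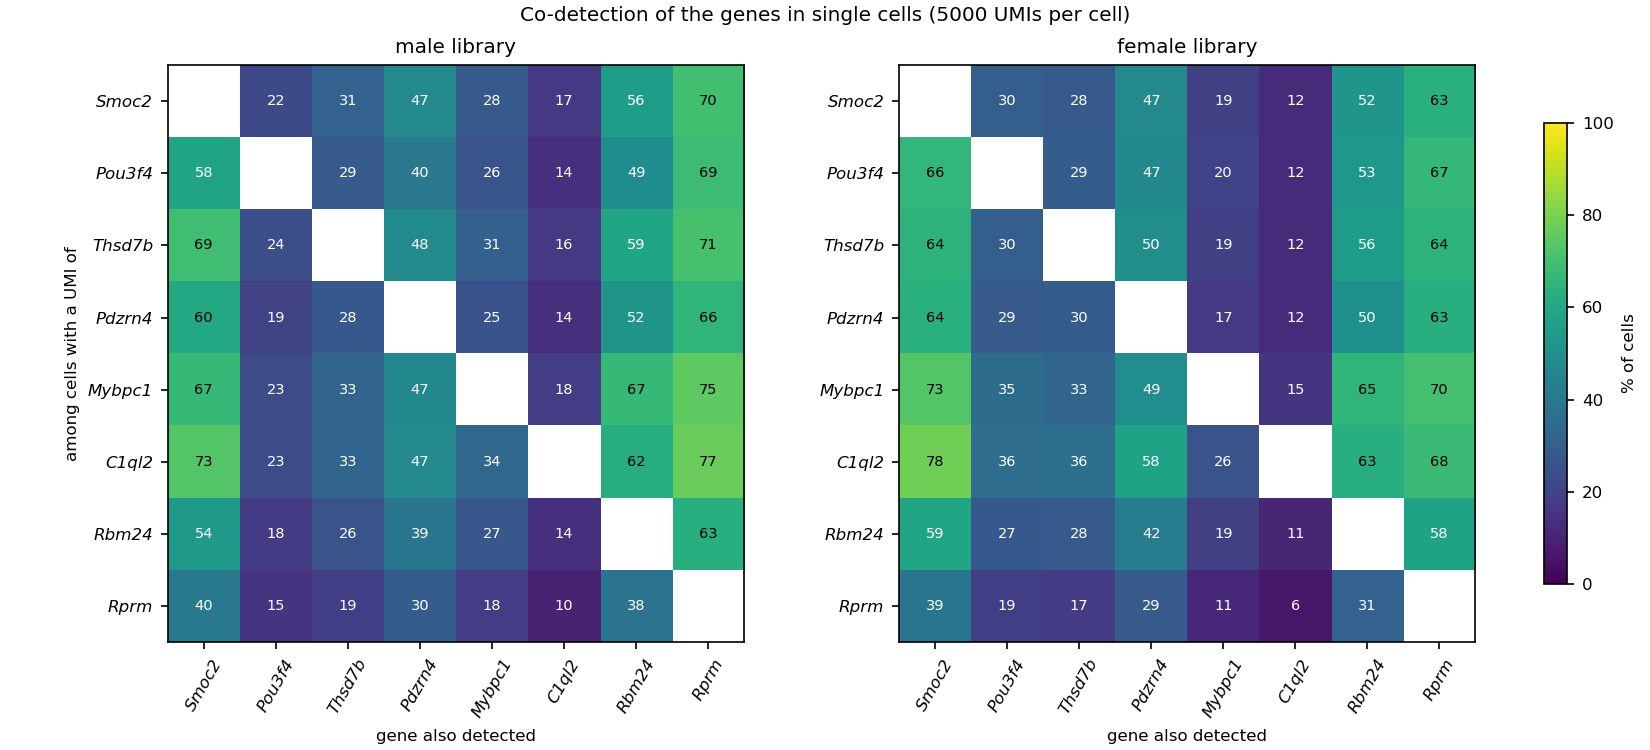
Share of cells with the row gene that also had the column gene (color, percent of thinned cells), in the male and the female library. The *C1ql2* row with the *Smoc2* column, 73.2% and 78.3%, and the *Smoc2* row with the *Rprm* column, 69.6% and 63.4%, are among the high values.

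Cells with these genes were less often in cycle. UMIs of at least 2 of 8 proliferation markers were found in 7.18% of male and 5.02% of female *Smoc2*-positive cells, against 21.1% and 18.1% of *Smoc2*-negative cells, and in 11% and 9.89% of *Rprm*-positive cells against 22.1% and 18.1%. *Lef1*-positive cells as a whole had 6.54% and 4.23%. Within them the shares with and without *Smoc2* were 6.30% and 6.87% in the male and 5.44% and 2.78% in the female library. Within *Lef1*-positive cells the order of the shares thus differed between the libraries.

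Among genes measured beside them, 5 of 8 stem-cell and 5 of 8 early differentiation genes passed 2-fold with *Lef1*, in opposite directions. Of 12177 genes, 1.51% had at least a 2-fold higher and 9.44% at least a 2-fold lower share in *Lef1*-positive cells in both libraries. Of 8 stem-cell genes tested, 5 had at least a 2-fold lower and 0 a 2-fold higher share in *Lef1*-positive cells in both libraries, among them *Ednrb* (the endothelin receptor type B) at 2.18% against 14.8% in the male and 3.80% against 32.6% in the female library, and *Hes1* (a Notch target) at 13.6% against 55.8% and 19.3% against 73.9%. Of 8 early differentiation genes, 5 were at least 2-fold higher, among them *Mycl* (a MYC family factor) at 68.2% against 21.1% and 62.0% against 18.0%, and *Dll1* (a Notch ligand) at 34.0% against 11.7% and 35.1% against 12.3%. Of 7 WNT response genes, 2 were higher, *Nkd1* and *Sp5*, of 8 gonadotroph factors *Foxl2* and *Isl1* were higher and *Gata2* lower, of 6 Hedgehog genes *Gli2* was lower, and of 7 genes of the Pou1f1 lineage 0 passed either way. The median ratio of shares was 0.390 for the stem-cell list, 2.54 for early differentiation, 1.42 for the WNT response, 0.783 for Hedgehog, 1.21 for gonadotroph factors and 0.893 for the Pou1f1 lineage, beside 4.47 for the 8 genes and 0.985 for all 12178 genes. In maturing gonadotrophs 6 of 8 early differentiation genes, 3 of 6 stem-cell genes, 2 of 3 WNT response genes, 1 of 2 Hedgehog genes, 1 of 4 genes of the Pou1f1 lineage and 0 of 3 gonadotroph factors were at least 2-fold below progenitors in both libraries, beside 5.65% of all genes.

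Of 14 paralogs of the genes, 2 reached 20 CPM in the progenitors of both libraries, *Thsd7a* and *Rbm38*. *Thsd7a* was at 112 and 127 CPM in stem cells, 85.2 and 109 CPM in progenitors and 104 and 107 CPM in Foxl2 early cells, where *Thsd7b* had 85.8 and 95.7 CPM after 3.6 and 1.89 CPM in stem cells. *Rbm38* was higher at the onset, going from 5.3 and 6.8 CPM in stem cells to 32.8 and 36.7 CPM in Foxl2 early cells, but was at 7.1 and 6.2 CPM in maturing gonadotrophs. *Smoc1* was at 1.7 CPM in progenitors of each library. Genes with the most similar profile were sought over 33 class profiles, which share libraries and depth, by Pearson's r of log2(CPM + 5) with each of 9487 genes. For *Smoc2* they were *Ada* (r = 0.944), *Grp* (0.927), *Pex5l* (0.926), *Gadd45g* (0.919) and *Calca* (0.914). Some of the 8 were among the 5 most similar genes of another: *Thsd7b* with *Pdzrn4* (0.950), *Mybpc1* with *Rbm24* (0.953), and *Pou3f4* with *C1ql2* (0.935). For *Rprm* the first was *Rtraf* (0.947). With a pseudocount of 1 or a minimum of 50 CPM all 5 genes listed for *Smoc2* were kept, but 2 of 5 for *C1ql2*, and *Pou3f4* was no longer listed for *C1ql2* at a pseudocount of 1.

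*Pou3f4*, which is X-linked, differed between the libraries. Its female level was 1.60 (1.41 to 1.82) times the male level in *Lef1*-only progenitors, 1.86 (1.69 to 2.05) times in Foxl2 early, 1.81 (1.53 to 2.14) times in Cga-mid and 2.38 (1.86 to 3.02) times in Cga-high cells, but 1.40 (1.25 to 1.58) times in all progenitors together, 0.766 (0.561 to 1.04) times in stem cells and 1.14 (0.480 to 2.32) times in maturing gonadotrophs. In *Shh* progenitors the order was the other way, 296 CPM in males and 214 in females, with overlapping intervals. By a rule chosen after these values were seen, at least 1.5 times the male level in *Lef1*-only progenitors, Foxl2 early and Cga-mid cells, 1 of the 7 genes tested was higher in the female library, against 0.288% of 5547 genes. With classes from cells thinned to 5000 UMIs this call was lost, as *Pou3f4* in *Lef1*-only progenitors was then 1.18 times as high in the female library. Of 170 X-linked genes 3 met the rule, *Xist*, *Tsix* and *Pou3f4*, and the median female-to-male ratio in Foxl2 early cells was 0.988 for X-linked and 0.964 for all genes. With 1 library per sex, sex and library cannot be told apart.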

How the data were processed

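The deposited values are UMI counts per gene and cell, whole numbers that the authors obtained with Cell Ranger 3.0.2 (STAR 2.5.1b) against an mm10 transcriptome with an added eGFP sequence; they were not normalized. The sources differ on the chemistry version of the 10x kit. Submitters' processing notes also name R 3.6.0 and Seurat 3 and 4. Cells with at least 50 genes and a mitochondrial share of at most the mean plus 3 SD of their library (20.4% for males, 26.1% for females) were kept, which removed 159 of 10569 and 85 of 5796 barcodes. UMIs were summed per marker-defined class and scaled to CPM with exact Poisson intervals. Ratios of levels have exact conditional binomial intervals and shares have Clopper-Pearson intervals. Shares used cells of at least 5000 UMIs thinned to 5000 without replacement (seed 1), which left out 3627 male and 287 female cells. Hormone-poor cells had fewer than 50 *Gh*, 50 *Pomc*, 5 *Prl* and 5 *Cga* UMIs and fewer than 10 of collagens and *Dcn*; steps of *Cga* used the same limits without that on *Cga*. Doublets were kept (the study's methods do not mention them), and Scrublet scores were used as an alternative. With 1 library per sex no test was run. A gene counted as higher or lower from a 2-fold difference in both libraries, among genes present in at least 1% of thinned cells or at 20 CPM in progenitors of each library. Genes named are the 8 genes, the 5 partners, class markers, paralogs, 6 lists and, for each of the 8, the 5 genes with the most similar class profile. Some members of the lists are not reported here by name. The genes and lists were chosen with earlier results of these data known. Scripts were tested on simulated data. Gene positions are from GENCODE vM21. Proteins of the paralogs were not analysed here. Alternatives changed thresholds, folds, thinning depth and seed, filters, doublets and scaling. Python 3.11.15, numpy 2.4.6, scipy 1.17.1, pandas 2.3.3, scanpy 1.11.5 and matplotlib 3.10.9 were used.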

Additional observations from a re-analysis of the deposited data

Results flagged for a closer look

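Of 96 ratios of class levels to progenitors, 6 pointed in opposite directions in the male and the female library, and none of these differences was tested, since there was 1 library per sex. In Cga-high cells *Pou3f4* was at 0.835 times the progenitor level in the male and 1.42 times in the female library, and both intervals left out 1. *C1ql2* in the same class was at 0.815 and 1.45 times. In maturing gonadotrophs *Mybpc1* was at 0.835 and 1.26 times and *Rbm24* at 0.991 and 1.46 times, the female values resting on 22 cells. In cells with *Pou1f1* and at least 10 *Cga* UMIs *C1ql2* was at 0.884 and 1.78 times, and *Rprm* at 0.789 and 1.28 times, where both intervals left out 1 and the female class had 31 cells.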

How the results depend on the processing

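Of 1168 ratios of shares or levels recomputed under the alternatives, 881 stayed within the interval reported and 285 moved beyond it. The other 2, both ratios of shares, were classed as reversed. Of the 112 level ratios, 95 moved with all thresholds doubled and 82 with classes from thinned cells, while the mitochondrial limit, a minimum of 1000 genes and CPM without hormone genes moved 0. In the male library *Pou3f4* in Cga-mid cells was above *Lef1*-only progenitors as reported, 91.8 against 45.6 CPM. It was below them with doubled thresholds, 64 against 71 CPM, and with thinned classes, 63.1 against 80.8 CPM. With all thresholds doubled, 12 male and 2 female cells were *Shh*-positive in place of 85 and 39. The female *Shh* ratios of *Pou3f4* and *Thsd7b* were then 0, and 5 of the 8 genes were higher with *Shh*. With doubled thresholds the number at least 2-fold below progenitors was 2 in Cga-high and 6 in Pou1f1-low cells, and with classes from cells thinned to 5000 UMIs it was 4 in each. In maturing gonadotrophs doubled thresholds gave 6 in place of 5, and in Pou1f1-high cells 7 in place of 5. The number higher with *Cga* was 2 at a fold of 3, 3 with doubled thresholds or shallower thinning, 5 with another seed, 6 without the highest Scrublet scores or with *Cga* from 1 UMI, and 8 in the female library alone. Requiring a 4-fold lower level left 1 gene in maturing gonadotrophs and 2 in Pou1f1-high cells. In the female library alone 2 genes were lower in Pou1f1-low cells. With thinned classes *Pou3f4* in *Lef1*-only progenitors was 1.18 times as high in the female library, so 0 genes met the rule on sex. The cause of these changes was not tested. The single-library settings and another fold for the sexes were chosen after seeing the data. No paired analysis was possible because there was 1 library per sex. Few UMIs limit *C1ql2*, and 22 cells limit the female maturing gonadotrophs.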

Other observations

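*Smoc2* was also found in extra-pituitary cells, which carried *Dcn* at 4369 and 5693 CPM and *Col1a1* at 2341 and 2899 CPM. Its level there was 40.2 and 28.3 CPM, with up to 22 and 10 UMIs in 1 cell. A small part of the class carried it: 17.4% and 13.9% of cells had a *Smoc2* UMI. The top 5% of cells held 64.6% and 64.0% of its UMIs, against 18.9% and 14.4% in Foxl2 early cells. *Smoc2* had 1.32 and 2.97 UMIs per *Rprm* UMI in extra-pituitary cells, against 0.805 and 0.770 in Foxl2 early, 0.333 and 0.351 in POMC and 0.194 and 0.135 in stem cells. The ratio of the 2 genes thus differed between these classes. Among the immune and endothelial markers *Ptprc* was at 0 CPM and *Cdh5* at 27.4 and 40.4 CPM in these cells.

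*Thsd7b* was present in 5.19% of male and 11.3% of female POMC cells, where *Mybpc1* was present in 0.433% and 0.752%.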
